A study of Mus musculus with 12 samples.

Results

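The genes described here are 10 heat shock proteins and small chaperones (Hspa1a, Hspa1b, Hspa8, Hsp90aa1, Hsph1, Dnajb1, Hspb1, Hspb8, Cryab and Bag3), taken by gene name from a table of 23586 genes in bulk RNA sequencing of mouse muscle stem cells, which repair skeletal muscle. All cells carried the Pax3nLacZ-IRES-GFP allele, in which GFP is made from the Pax3 locus, and flow cytometry separated GFP-positive cells, taken as PAX3-positive, from GFP-negative cells, taken as PAX3-negative. Culture was in 20% fetal serum and basic FGF at 4 ng/mL, and cells of both sorts were transfected with 2 µg of pCR3 plasmid that either carried mouse Six2 cDNA or was empty. The 4 groups were GFP-positive SIX2, GFP-positive control, GFP-negative SIX2 and GFP-negative control, with 3 libraries each from at least 50000 cells. No age, sex or strain of the animals is used here. The design asks what added SIX2, a homeobox transcription factor, does to expression in cells of each sort, and where the sorts differ without it.

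The depth in reads per library, divided by 1000000, was 12.6 to 15.5 with GFP-positive SIX2, 31.3 to 47.3 with GFP-positive control, 34.0 to 40.2 with GFP-negative SIX2, and 12.4 to 33.2 with GFP-negative control. Every SIX2 library was thus shallower than every control library in GFP-positive cells, and deeper in GFP-negative cells. GFP-positive SIX2 libraries were also shallower than every GFP-negative SIX2 library. Depth therefore cannot be told apart from the plasmid label in either population, or from the GFP label in SIX2 libraries. Nor can it be told apart from a difference of the plasmid effect between the populations. Six2 itself had 2 to 36 reads per library and did not pass the test between plasmid labels (limma adjusted p = 0.209 for GFP-positive cells, 0.421 for GFP-negative cells). Pax3 did not pass between GFP labels in control libraries (limma adjusted p = 0.991) or in SIX2 libraries (adjusted p = 0.432). It was lower with the SIX2 label in both populations, at 3.9 to 14.7 normalized counts in GFP-positive SIX2 and 59.9 to 94.1 in GFP-positive control libraries (log2 difference −2.82, limma adjusted p = 0.00029), and at 13.8 to 19.3 in GFP-negative SIX2 and 68.2 to 73.2 in GFP-negative control libraries (−2.06, adjusted p = 0.0022). Neither Six2 between plasmid labels nor Pax3 between GFP labels checked its label, so "SIX2", "control", "GFP-positive" and "GFP-negative" are the names on the labels, and every direction given is one between libraries so labelled. The muscle regulator Myod1 stood at 14409.8 to 19016.5 normalized counts in all 12 libraries. The stem cell regulator Pax7 stood much lower, at 82.5 to 184, and Myf5 at 1420 to 4657. Pecam1, an endothelial marker, reached at most 13.2, and Dcn, a fibroblast marker, at most 1.80. The fibro-adipogenic markers Pdgfra and Ly6a reached at most 27.0 and 39.1. Whether a group's 3 libraries are separate animals, separate cultures or technical repeats is not stated, and a p-value here covers the spread between libraries whatever its source.

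Heat shock proteins bind unfolded or unstable proteins. Small heat shock proteins such as the products of Cryab, Hspb1 and Hspb8 hold them in solution without using ATP, and HSP70 proteins refold them in ATP-driven cycles with J proteins and nucleotide exchange factors. HSP90 acts later on signalling proteins and on myosin. In striated muscle, BAG3 links HSP70 and HSPB8 to the selective autophagy of damaged Z-disc proteins, and CRYAB binds desmin and titin. Stress raises many of these genes through heat shock factor 1, which binds repeats of the bases GAA and their reverse complement TTC.

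Between plasmid labels, 4 of the 10 genes were lower with SIX2 in both populations. These were Cryab, Hspb1, Bag3 and Hsph1, whose group means fell by 45.2% at most (Cryab, GFP-positive) and fell by 16.9% at least (Hsph1, GFP-negative). The share of all genes called lower in both populations was not computed, so the joint count has no background. Hspb1 left this set with the GC trend removed, where its GFP-negative difference did not pass (limma adjusted p = 0.598). In GFP-positive libraries these 4 genes were all the members that passed, 4 of 9 tested, against 23.3% of all 14580 genes tested (12.1% higher, 11.2% lower). In GFP-negative libraries 8 of 9 passed, against 27.9% of all genes (13.6% higher, 14.3% lower): 5 were lower (the same 4 and Hspb8) and 3 were higher (Hspa1a, Dnajb1 and Hsp90aa1). The median log2 difference over the 9 members came to −0.42 in GFP-positive libraries, where that of all genes tested was −0.01, and to −0.18 in GFP-negative libraries, where it was 0.00. Without regard to the test, SIX2 and control libraries did not overlap for 6 members that lay lower in GFP-positive cells (18.1% of all genes) and 1 that lay higher (18.7%), and for 5 that lay lower in GFP-negative cells (23.5%) and 3 that lay higher (22.8%). Hspa1b was the member not tested, since it lay below 10 normalized counts in every library. Under quantile normalization the GFP-positive split was 1 higher and 5 lower, in place of 0 higher and 4 lower. The GFP-negative split was less stable, with 2 higher and 4 lower under quantile normalization and 2 higher and 3 lower with the GC trend removed. Without GFP-negative SIX2 replicate 3 it was 0 higher and 4 lower. Without GFP-negative control replicate 2 it was 0 higher and 5 lower, and without control replicate 3 it was 1 higher and 4 lower. The test was limma-trend on log2(normalized count + 1), with Benjamini-Hochberg adjustment over all genes tested and a threshold of 0.05.

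**Figure D1:**
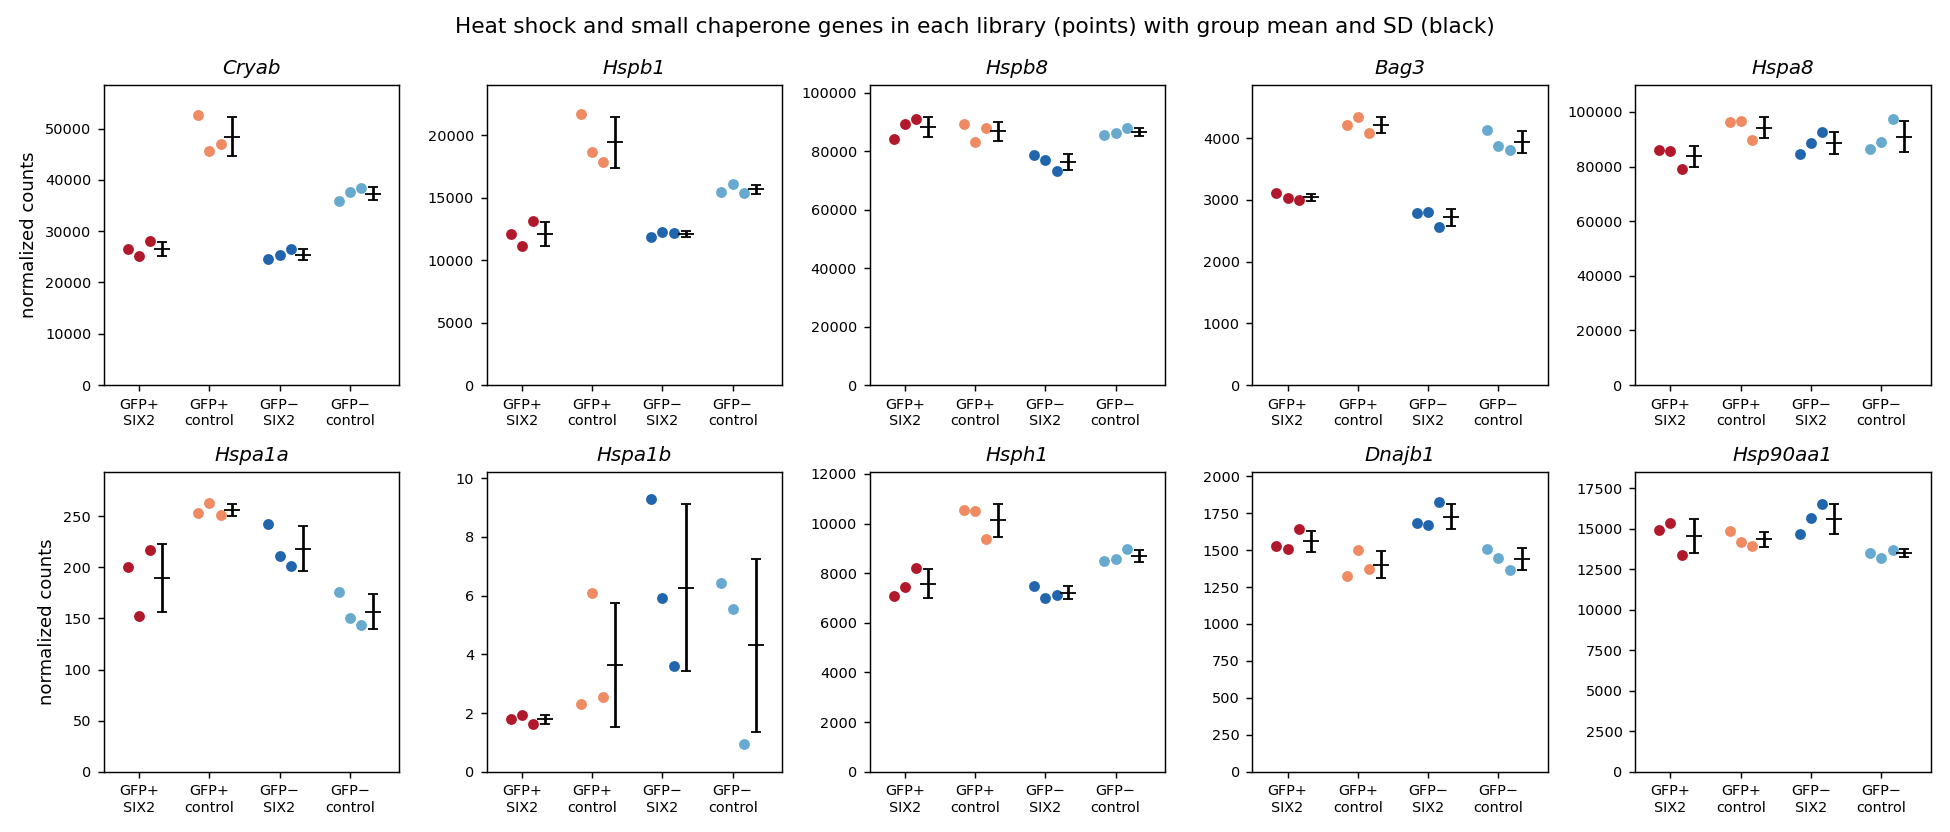
Normalized counts (vertical axis, linear, starting at 0) of each of the 10 genes in every library; points are libraries, black bars the group mean and SD of 3 libraries, and groups run GFP+ SIX2, GFP+ control, GFP− SIX2, GFP− control. Cryab, Hspb1, Bag3 and Hsph1 sit lower in SIX2 than in control libraries in both populations, without overlap between the groups compared.

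Cryab, which encodes αB-crystallin, the small heat shock protein of Z-discs and desmin filaments (GRCm38 chr9:50751325-50756636, plus strand), showed the greatest fall of the 9 members tested in either population. It had 26438.5, 25236 and 27978 normalized counts in GFP-positive SIX2 libraries, against 52725, 45536 and 47048.5 in GFP-positive control libraries. In GFP-negative cells it had 24477, 25325 and 26470.1 in SIX2 libraries, against 35949, 37532.5 and 38467 in control libraries. All 6 SIX2 libraries lay below all 6 control libraries. The log2 difference was −0.87 ± 0.06 (SE) in GFP-positive libraries (limma adjusted p = 2.2e-06) and −0.55 ± 0.06 in GFP-negative libraries (adjusted p = 4.62e-05). The mean fell by 45.2% in GFP-positive cells and fell by 31.9% in GFP-negative cells. Its exons overlap those of Hspb2, another small heat shock protein gene, on the opposite strand, and the library protocol does not mark the strand, so reads from the overlap cannot be assigned. Hspb2 was also lower, at 3998 in GFP-positive SIX2 and 4971 in GFP-positive control libraries on average, and at 3605 in GFP-negative SIX2 and 4298 in GFP-negative control libraries (limma adjusted p = 0.00428 and 0.0128). In bulk RNA, fewer cells that express a gene and less of its RNA per cell cannot be told apart.

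Hspb1, which encodes HSP27, a small heat shock protein that caps actin filaments (chr5:135887919-135889563, plus strand), followed the same order. It had 12076, 11107 and 13093 normalized counts in GFP-positive SIX2 libraries, against 21707.5, 18685 and 17849.7 in GFP-positive control libraries. The GFP-negative values were 11823.5, 12275 and 12149.7 in SIX2 libraries, against 15461, 16079 and 15407 in control libraries. The groups did not overlap in either population, and the 2 SIX2 groups had nearly equal means of 12092 ± 993 and 12083 ± 233 (SD, n = 3 each). On the log2 scale the difference was −0.68 ± 0.07 (SE) in GFP-positive libraries (limma adjusted p = 3.14e-05) and −0.37 ± 0.07 in GFP-negative libraries (adjusted p = 0.0022). The GFP-negative difference moved with base composition. The longest Hspb1 transcript is 61.7% G and C, and genes in the top 10% of GC content deviated from their mean over all libraries by a median of −0.108 to −0.0379 (log2) in GFP-negative SIX2 libraries, against 0.0632 to 0.132 in GFP-negative control libraries. With each library's GC trend removed, the difference of Hspb1 was −0.08 in GFP-negative libraries (adjusted p = 0.598), while in GFP-positive libraries it stayed past the threshold under every alternative run (−0.74 to −0.60).

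The 250 bases before the Hspb1 start are shown because they hold a pair of the inverted repeats that heat shock factors bind (RefSeq, GRCm38.p6, chr5:135887669-135887918, plus strand, 5′ to 3′). Capitals mark GAANNTTC, which reads the same on both strands.

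Hspb1: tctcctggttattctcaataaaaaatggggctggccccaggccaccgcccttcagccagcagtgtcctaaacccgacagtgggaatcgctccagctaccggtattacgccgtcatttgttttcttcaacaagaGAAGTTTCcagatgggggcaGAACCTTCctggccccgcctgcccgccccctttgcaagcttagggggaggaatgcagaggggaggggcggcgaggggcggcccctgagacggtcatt

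Searching 300-base windows from 250 bases before to 50 after each RefSeq start, GAANNTTC occurred in 7.86% of 32851 windows and its counterpart TTCNNGAA, also the same on both strands and able to overlap it, in 8.52%. Either was present in 15.1% of windows, and in at least 1 window of 17.0% of 27025 genes. Of the 10 members, 7 had a window, and 6 of these held a match: Hspa1a, Hspa1b, Hsph1, Hspb1, Hspb8 and Bag3. Neither of the 2 windows of Dnajb1 held one. Hspa8, Hsp90aa1 and Cryab are the others. The matches were upstream of the start in Hspb1, Hspa1a, Hspa1b and Hsph1, and downstream of it in Hspb8, Bag3 and, in addition, Hsph1. The letters TCAGGTTTC, a form of the MEF3 site that SIX2 and its relatives bind, searched on both strands, were in 0.429% of all windows and in no member's window. Of the members called with the SIX2 label in GFP-negative libraries, the lower Hspb1, Hsph1, Bag3 and Hspb8 and the higher Hspa1a held GAANNTTC. Dnajb1, also called higher, did not. Cryab, called lower, and Hsp90aa1, called higher, had no window. The stretches of at most 30 bases around the downstream matches are printed on the gene's strand, with the match in capitals. They lie at chr5:149636282-149636311 (minus strand) for Hsph1, where a TTCNNGAA and a GAANNTTC overlap, at chr5:116422844-116422873 (minus strand) for Hspb8 and at chr7:128523614-128523632 (plus strand) for Bag3.

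Hsph1: aatgctgcagaTTCTGGAAAGTTCtcctca

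Hspb8: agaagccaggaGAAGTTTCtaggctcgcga

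Bag3: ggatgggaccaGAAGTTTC

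Hspb8, which encodes HSP22, the small heat shock partner of BAG3 (chr5:116408491-116422864, minus strand), was called in GFP-negative cells only, and the difference between the populations did not pass (limma adjusted p = 0.183). It had 84310.3, 89403 and 90873 normalized counts in GFP-positive SIX2 libraries, against 89288, 83210.5 and 87753 in GFP-positive control libraries, and these overlapped. Among GFP-negative libraries they were 78657, 76793 and 73339.5 in SIX2 libraries, against 85470.2, 86293 and 88028 in control libraries, with no overlap. The fitted log2 difference was 0.02 ± 0.05 (SE) in GFP-positive libraries (limma adjusted p = 0.786, 95% interval −0.09 to 0.13) and −0.18 ± 0.05 in GFP-negative libraries (adjusted p = 0.0157). The GFP-negative call depended on the processing: the difference was 0.04 (adjusted p = 0.659) after quantile normalization, which also gave 0.22 (adjusted p = 0.0186) in GFP-positive libraries, and −0.09 (adjusted p = 0.22) with the GC trend removed. It also ended with no filter on low values (adjusted p = 0.0585), without control replicate 3 (adjusted p = 0.0518) and without SIX2 replicate 3 (adjusted p = 0.0537).

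Bag3, the co-chaperone that joins HSP70 to small heat shock proteins (chr7:128523616-128546981, plus strand), fell by a similar amount in both populations. It had 3103, 3026 and 2991 normalized counts in GFP-positive SIX2 libraries, against 4209, 4339.7 and 4078 in GFP-positive control libraries. Its GFP-negative counts were 2781, 2805 and 2562 in SIX2 libraries, against 4134, 3871 and 3806 in control libraries. No SIX2 library reached the lowest control library. As a log2 difference this was −0.47 ± 0.06 (SE) in GFP-positive libraries (limma adjusted p = 0.000122) and −0.54 ± 0.06 in GFP-negative libraries (adjusted p = 4.29e-05), and it passed under every alternative run, with a range of −0.49 to −0.37 and of −0.56 to −0.36. The tested difference between these effects was 0.07, with a 95% interval of −0.12 to 0.25.

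Hspa1a and Hspa1b encode nearly identical copies of the stress-inducible HSP70 and stand beside each other on chromosome 17, Hspa1a at chr17:34969190-34972156 and Hspa1b at chr17:34956436-34959238, both on the minus strand. Their coding regions are 1923 and 1926 bases long, and 47.1% of the 100-base words of the Hspa1a transcript also occur in Hspa1b, so reads from the shared stretches can be credited to either gene. Their upstream 250 bases are shown because the 2 genes differed widely in level while these bases were 98.8% identical, with the substitutions C44T, T47C and T249G (Hspa1a base first, position counted from 1 at the 5′ end, then Hspa1b base). They are RefSeq sequence of GRCm38.p6, minus strand, chr17:34972157-34972406 for Hspa1a and chr17:34959239-34959488 for Hspa1b, with GAANNTTC in capitals at positions −104 to −97 from the start.

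Hspa1a: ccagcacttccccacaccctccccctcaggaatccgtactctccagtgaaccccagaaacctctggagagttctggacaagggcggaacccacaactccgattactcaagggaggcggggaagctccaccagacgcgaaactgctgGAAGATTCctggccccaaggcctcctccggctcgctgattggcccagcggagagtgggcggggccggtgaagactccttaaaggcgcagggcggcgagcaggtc

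Hspa1b: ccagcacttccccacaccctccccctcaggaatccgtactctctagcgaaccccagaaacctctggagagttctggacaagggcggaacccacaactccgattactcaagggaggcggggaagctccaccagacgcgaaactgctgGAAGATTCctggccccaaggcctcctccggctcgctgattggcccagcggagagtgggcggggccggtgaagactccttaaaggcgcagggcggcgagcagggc

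Hspa1a had 200.1, 152 and 217 normalized counts in GFP-positive SIX2 libraries, against 253, 263 and 251 in GFP-positive control libraries. In GFP-negative cells it had 243, 211 and 200.9 in SIX2 libraries, against 176, 151 and 144 in control libraries. The order of the plasmid labels was thus opposite in the 2 populations, with no overlap in either. The log2 difference was −0.45 ± 0.16 (SE) in GFP-positive libraries, which did not pass (limma adjusted p = 0.0573), and 0.48 ± 0.16 in GFP-negative libraries, which did (adjusted p = 0.0386). The GFP-negative call ended without control replicate 2 (adjusted p = 0.106), control replicate 3 (0.117), SIX2 replicate 1 (0.127), SIX2 replicate 2 (0.0748), SIX2 replicate 3 (0.0519) or GFP-positive control replicate 2 (0.0504). It also ended under quantile normalization (0.0652) and with no filter on low values (0.0609), while removing the GC trend gave 0.71 (adjusted p = 0.00342). The GFP-positive difference passed with a filter of 50 (adjusted p = 0.0494), under quantile normalization (0.0212), with library weights (0.0314) and without SIX2 replicate 3 (0.0372). The exons of Hspa1a overlap those of the protein-coding gene Gm20481 on the opposite strand, so reads from the overlap cannot be assigned. Gm20481 has no counts of its own here.

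Hspa1b had 1.79, 1.95 and 1.63 normalized counts in GFP-positive SIX2 libraries, against 2.29, 6.09 and 2.53 in GFP-positive control libraries. The GFP-negative values were 9.28, 5.93 and 3.61 in SIX2 libraries, against 6.43, 5.55 and 0.938 in control libraries. These are 1 to 13 reads per library, and no difference is read from them. Hspa1b made up 0.649% to 3.68% of the sum of both genes. With the 2 genes summed, the GFP-negative difference was 0.48 (limma adjusted p = 0.0399) and the GFP-positive one −0.45 (adjusted p = 0.057).

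Hspa8 encodes HSC70, the HSP70 made without stress (chr9:40800984-40810087, plus strand), and had the smallest spread of group means among the 9 tested members, the highest being 1.13 times the lowest. It had 86168, 85819.5 and 79168 normalized counts in GFP-positive SIX2 libraries, against 96341, 96583 and 89701 in GFP-positive control libraries, without overlap. In GFP-negative cells it had 84591.5, 88486 and 92722 in SIX2 libraries, against 86459.8, 89055 and 97303 in control libraries, with overlap. On the log2 scale the difference was −0.17 ± 0.06 (SE) in GFP-positive libraries (limma adjusted p = 0.0588) and −0.04 ± 0.06 in GFP-negative libraries (adjusted p = 0.698), and neither passed. The GFP-positive difference passed with the GC trend removed (adjusted p = 0.0376), without GFP-positive control replicate 3 (0.0492) and without GFP-negative control replicate 3 (0.0465). The gene also holds the small nucleolar RNAs Snord14c, Snord14d and Snord14e, whose reads cannot be separated from its own.

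Hsph1, the HSP110 nucleotide exchange factor of HSP70 (chr5:149614287-149636376, minus strand), was lower with SIX2 in both populations. It had 7063, 7449 and 8199.8 normalized counts in GFP-positive SIX2 libraries, against 10542, 10484 and 9373 in GFP-positive control libraries. Among GFP-negative libraries it had 7496, 7012 and 7134 in SIX2 libraries, against 8506, 8567 and 8962 in control libraries. The highest of the 6 SIX2 libraries lay below the lowest of the 6 control libraries. The fitted log2 difference was −0.42 ± 0.07 (SE) in GFP-positive libraries (limma adjusted p = 0.00055) and −0.27 ± 0.07 in GFP-negative libraries (adjusted p = 0.00892), and it passed under every alternative run, with a highest adjusted p of 0.00805 and 0.0402.

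Dnajb1, the HSP40 J protein that delivers clients to HSP70 (chr8:83608193-83612653, plus strand), was higher with SIX2 where it passed. It had 1529, 1506 and 1641 normalized counts in GFP-positive SIX2 libraries, against 1326, 1502 and 1373 in GFP-positive control libraries. Its GFP-negative counts were 1686, 1667 and 1826 in SIX2 libraries, against 1510.1, 1444 and 1367 in control libraries. The SIX2 libraries were the higher ones in both populations, and in GFP-positive cells the lowest of them, 1506, stood just above the highest control library, 1502. The log2 difference was 0.16 ± 0.08 (SE) in GFP-positive libraries, which did not pass (limma adjusted p = 0.163), and 0.26 ± 0.08 in GFP-negative libraries, which did (adjusted p = 0.0207). The GFP-negative call ended without control replicate 2 (adjusted p = 0.0573), control replicate 3 (0.0797) or SIX2 replicate 3 (0.0784).

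Hsp90aa1, the stress-inducible cytosolic HSP90 (chr12:110690605-110702728, minus strand), was called higher in the GFP-negative comparison, while the difference between the populations did not pass (limma adjusted p = 0.289). It had 14922, 15349 and 13359.6 normalized counts in GFP-positive SIX2 libraries, against 14885, 14222 and 13964 in GFP-positive control libraries, which overlapped. The GFP-negative values were 14682, 15687 and 16519.5 in SIX2 libraries, against 13518, 13235 and 13722 in control libraries. Here the groups did not overlap. On the log2 scale the difference was 0.02 ± 0.06 (SE) in GFP-positive libraries (limma adjusted p = 0.885) and 0.21 ± 0.06 in GFP-negative libraries (adjusted p = 0.0225). The GFP-negative call ended with the GC trend removed (0.10, adjusted p = 0.216) and without control replicate 1 (adjusted p = 0.0536), control replicate 2 (0.0777), SIX2 replicate 2 (0.065) or SIX2 replicate 3 (0.0865).

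**Figure D2:**
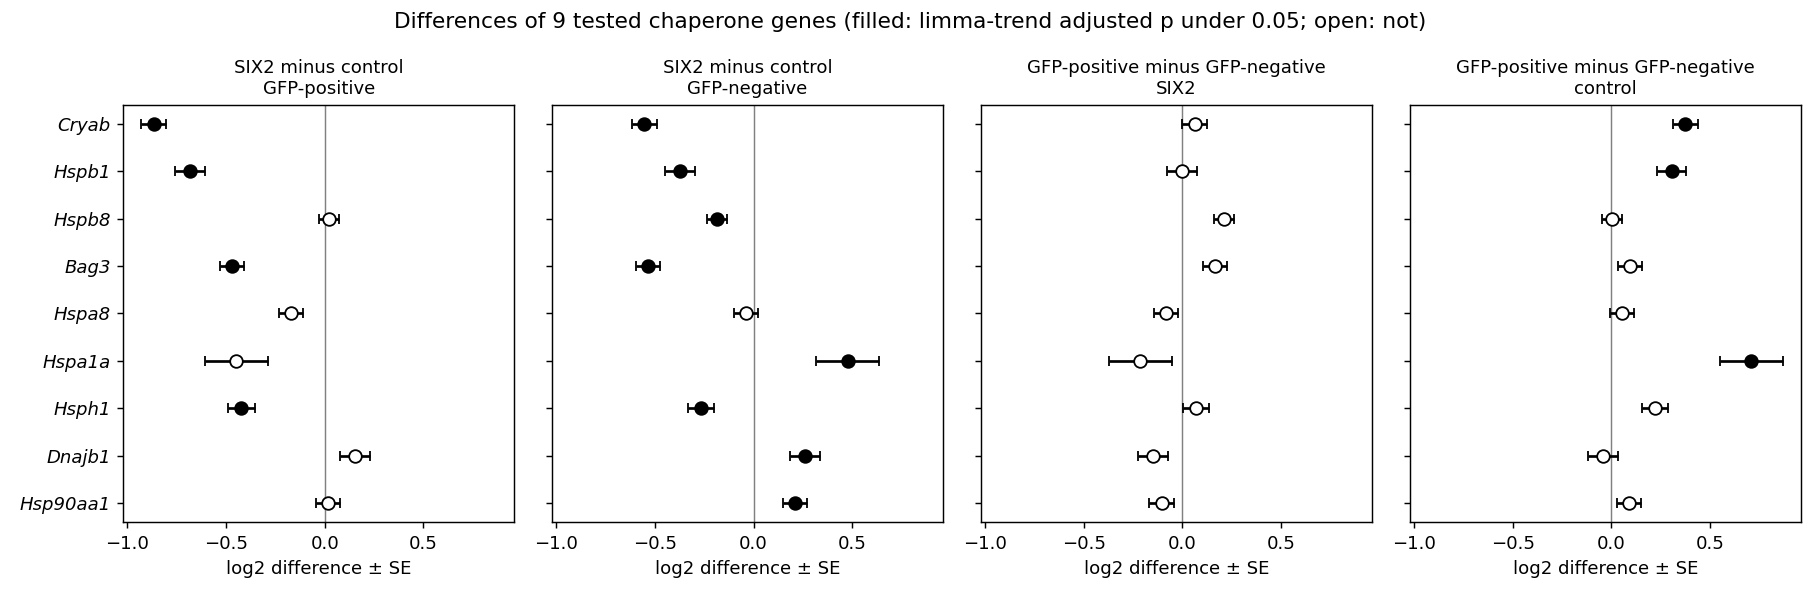
Log2 difference between the groups named in each panel (horizontal axis) for the 9 members tested, with its standard error; filled points passed an adjusted p of 0.05 and open points did not. Cryab, Hspb1, Bag3 and Hsph1 lie left of 0 in both plasmid-label comparisons, at −0.87 to −0.42 for GFP-positive cells and −0.55 to −0.27 for GFP-negative cells.

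Divided by exon length, the members spanned a wide range of levels. The median over the 12 libraries, in normalized counts per kilobase of exon, was 44042 for Hspb8, 21612 for Cryab, 20639.5 for Hspa8 and 13821 for Hspb1. It was 3676 for Hsp90aa1, 1348 for Bag3, 1149.6 for Hsph1 and 471 for Dnajb1. Hspa1a stood at 69.4 and Hspa1b at 1.10. Neighbours in this order whose ranges over the libraries overlapped were Cryab and Hspa8, Hspa8 and Hspb1, and Bag3 and Hsph1. The constitutive HSC70 gene and the muscle small heat shock proteins were thus the most abundant, and the inducible HSP70 pair the least, in all 12 libraries.

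**Figure D3:**
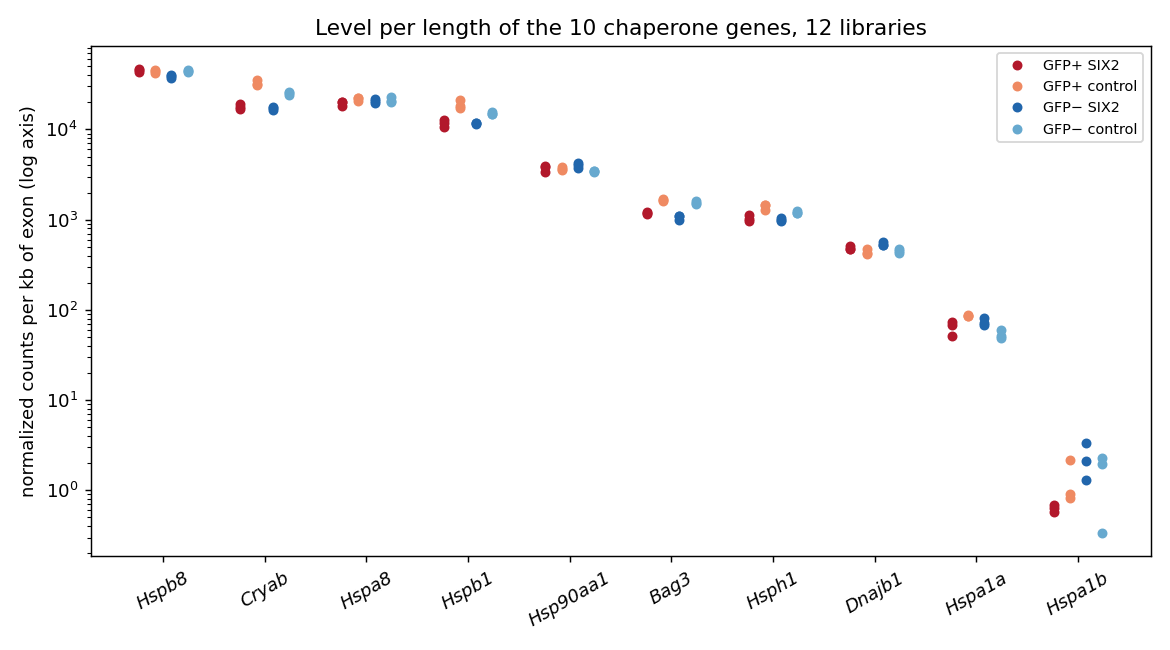
Normalized counts per kilobase of exon on a log axis, for each member in each of the 12 libraries, coloured by group. Hspb8 is the highest, at 37610 to 46602, and Hspa1b the lowest, at 0.335 to 3.31.

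Between GFP labels under the empty plasmid, 3 of 9 members were higher in GFP-positive control than in GFP-negative control libraries, where 3.48% of all genes passed (0.919% higher, 2.56% lower). Groups did not overlap for 5 members, all higher, as for 13% of all genes, while 14.1% did not overlap and were lower. The 3 that passed were Cryab, at 48437 ± 3790 in GFP-positive control and 37316 ± 1273 in GFP-negative control libraries (SD, n = 3 each), Hspb1, at 19414 ± 2030 and 15649 ± 373 in the same order, and Hspa1a, at 256 ± 6.18 and 157 ± 16.9. The log2 differences were 0.37 ± 0.06 (SE) for Cryab (limma adjusted p = 0.00894), 0.31 ± 0.07 for Hspb1 (adjusted p = 0.0401) and 0.71 ± 0.16 for Hspa1a (adjusted p = 0.0295). These control libraries are also those of the plasmid-label comparisons. Hsph1 had a difference of 0.22 that did not pass (adjusted p = 0.0847), although its groups did not overlap. The calls were fragile to single libraries: without GFP-negative control replicate 1 no member passed (Cryab 0.35, adjusted p = 0.0587), and without GFP-negative control replicate 2 or 3, or GFP-positive control replicate 1 or 2, Cryab alone did. Over these 5 left-out libraries Hspa1a had adjusted p-values of 0.0734 to 0.0972 and Hspb1 of 0.0764 to 0.164. Hspb1 also missed the threshold with no filter (0.0635), under quantile normalization (0.0508), with only the compared libraries (0.0548) and without GFP-negative SIX2 replicate 1 (0.0521) or 2 (0.0646).

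Between GFP labels under the SIX2 plasmid, none of the 9 members passed, where 0.192% of all genes did (0.0137% higher, 0.178% lower). Groups did not overlap for 2 members that lay higher, Hspb8 and Bag3 (9.05% of all genes), and 1 that lay lower, Dnajb1 (8.16%). By unadjusted p, 2 of the 9 members were under 0.05 in limma, as were 1893 of all 14580 genes tested. The count is therefore not read as a result about the members. The 2 were Hspb8, at 88195 ± 3444 in GFP-positive SIX2 and 76263 ± 2698 in GFP-negative SIX2 libraries (SD, n = 3 each), and Bag3, at 3040.05 ± 57.2 and 2716 ± 134. The log2 difference of Hspb8 was 0.21 ± 0.05 SE (limma adjusted p = 0.114), and DESeq2 on the recovered reads gave 0.21 with an adjusted p of 0.0158. That of Bag3 was 0.16 ± 0.06 SE (limma adjusted p = 0.269). Cryab, Hspb1 and Hspa1a differed by 0.06, −0.00 and −0.21 here, with adjusted p-values of 0.714, 0.993 and 0.597.

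Whether the effect of the plasmid label differed between the populations was tested as an interaction, GFP-positive effect minus GFP-negative effect. No member passed, as no gene did (0% of 14580; 2437 had an unadjusted p under 0.05, and edgeR called 0 and DESeq2 558). By unadjusted p, 5 of the 9 members were under 0.05. Hspa1a had the largest difference of the 9, −0.92 ± 0.22 SE (limma adjusted p = 0.0995), which passed with library weights (−1.02, adjusted p = 0.0345) and in DESeq2 (−0.92, adjusted p = 0.00926), and had adjusted p-values of 0.00926 to 0.221 over all alternatives. Cryab differed by −0.31 ± 0.09 (limma adjusted p = 0.129), Hspb1 by −0.31 ± 0.10 (adjusted p = 0.179) and Hspb8 by 0.21 ± 0.07 (adjusted p = 0.183). DESeq2 also called Cryab, with −0.31 and an adjusted p of 0.0437. A missed threshold does not show that the effects were alike, since the 95% interval of the difference for Cryab ran from −0.50 to −0.12.

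The wider chaperone machinery was read from a list of 50 further genes, all of them tested. With the SIX2 label, GFP-positive libraries had 4 of these higher and 14 lower, and GFP-negative libraries had 3 higher and 18 lower. Of all genes tested in GFP-positive cells 12.1% were higher and 11.2% lower, and in GFP-negative cells 13.6% and 14.3%. Under quantile normalization these splits were 5 and 10, and 6 and 12. In both populations the same 11 were lower and the same 3 higher, and none was called in opposite directions. The shares of all genes called alike or in opposite directions were not computed, so these joint counts have no background. The list's median log2 difference was −0.10 among GFP-positive libraries, where that of all genes tested was −0.01, and −0.13 among GFP-negative ones, where it was 0.00. The called genes with the smallest p in each direction are named.

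Among the higher genes, Hspd1, the mitochondrial chaperonin HSP60, averaged 9561 in GFP-positive SIX2 and 7739 in GFP-positive control libraries, and 10918 in GFP-negative SIX2 and 7242 in GFP-negative control libraries. Its log2 differences were 0.30 ± 0.08 (SE) and 0.59 ± 0.08 (limma adjusted p = 0.0155 and 0.00015). Fkbp4, an HSP90 co-chaperone of steroid receptors, rose by 0.25 and 0.32 (adjusted p = 0.0142 and 0.00308), and the ribosome-associated HSP70 gene Hspa14 by 0.28 and 0.34 (adjusted p = 0.0372 and 0.0123), each given for GFP-positive and then GFP-negative libraries. Stub1, the CHIP ubiquitin ligase that tags HSP70 clients, was called in GFP-positive libraries, with 0.18 (adjusted p = 0.0384).

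Among the lower genes, the J protein Dnajb2 fell by 0.45 on the log2 scale in GFP-positive libraries (limma adjusted p = 0.00114) and by 0.47 in GFP-negative libraries (adjusted p = 0.000692). The most significant falls in GFP-positive libraries were those of Hsf2, a heat shock transcription factor (899 in SIX2 and 1489 in control libraries, log2 difference −0.74, adjusted p = 0.000332), St13, which holds HSP70 in its client-bound state (−0.46, adjusted p = 0.000466), and Dnajb6, a J protein mutated in a human limb-girdle muscular dystrophy (−0.37, adjusted p = 0.000707). In GFP-negative libraries they were those of Dnaja2 (9570 in SIX2 and 12962 in control libraries, −0.44, adjusted p = 0.000101) and Dnaja4 (−0.80, adjusted p = 0.000285), both J proteins, and of Synpo2, a Z-disc protein of the BAG3 pathway (−0.49, adjusted p = 0.000898). By family, 4 of the list's 8 J proteins were lower with SIX2 where cells were GFP-positive (11.2% of all genes) and 5 of 8 where they were GFP-negative (14.3%). None of these 8 was called higher, but Dnajb1, the J protein counted among the 10 members and not here, was higher in GFP-negative libraries, as given above. Of the 8 subunits of the CCT chaperonin, which folds actin and tubulin, 2 were lower in each population, and of the 3 myosin chaperone genes (Unc45a, Unc45b and Smyd1) 2 were lower in each. Of all genes, 23.3% and 27.9% were called in either direction, and 11.2% and 14.3% lower. With so few genes in each family, nothing is read from the J protein, CCT and myosin chaperone counts. Counts of the list's other families are not given here. Hsf1, the main heat shock factor, differed by −0.09 in GFP-positive libraries and by −0.28 (log2) in GFP-negative libraries, of which the second passed (adjusted p = 0.00892).

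**Figure D4:**
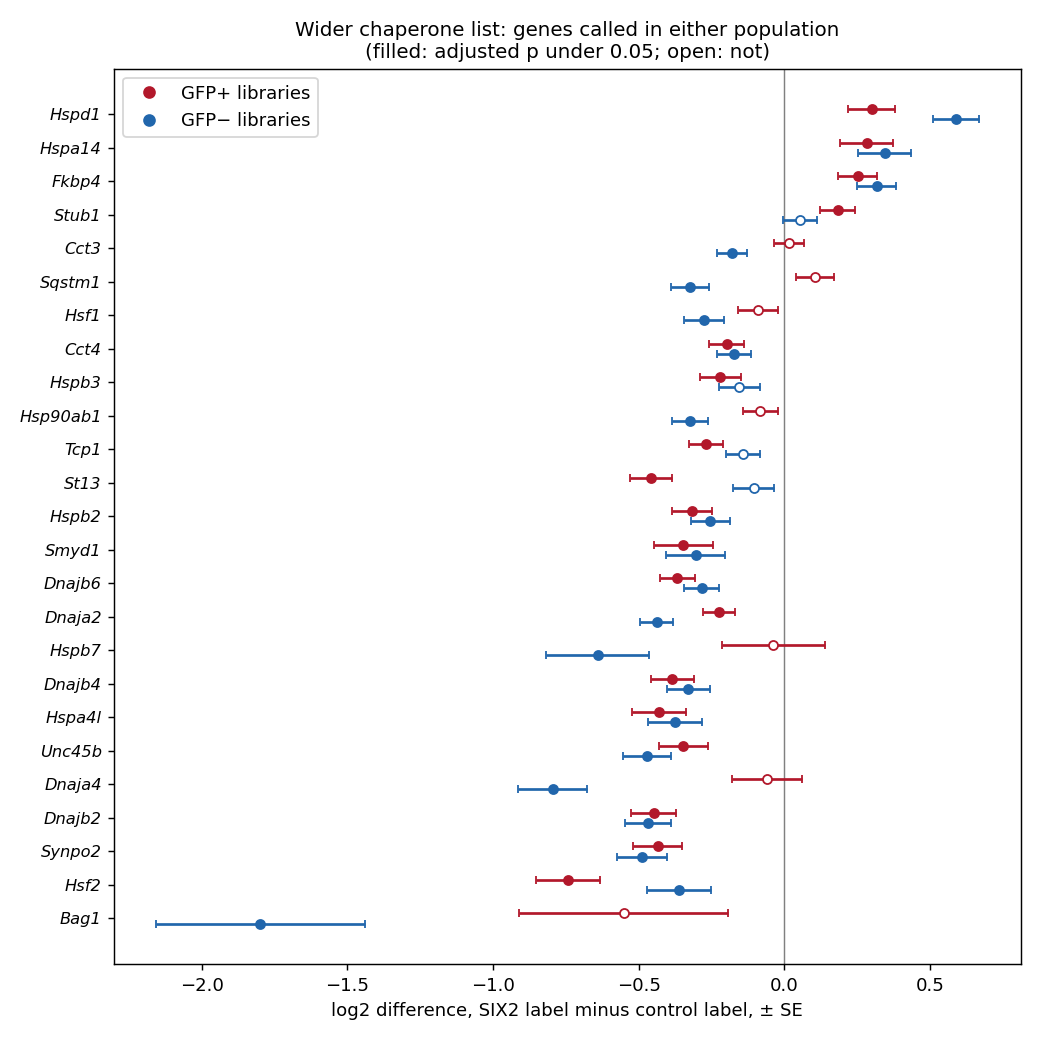
Log2 difference between SIX2 and control labels (horizontal axis, bars are the standard error) for the genes of the wider list called in either population; filled points passed an adjusted p of 0.05. Hspd1, Hspa14 and Fkbp4 lie right of 0 in both populations, at 0.25 to 0.59, and most of the others left of it.

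Between GFP labels, 2 of the 50 genes passed in control libraries, both lower, a share near that of all genes (3.48%, with 2.56% lower), so the count is not a result about the list. They were Dnaja4, at 551 in GFP-positive control and 803 in GFP-negative control libraries (log2 difference −0.54 ± 0.12 SE, limma adjusted p = 0.0269), and Bag1, an exchange factor of HSP70, at 2850.5 and 7512 (−1.47 ± 0.36, adjusted p = 0.0422). With the GC trend removed the split was 2 higher and 2 lower. Neither of these calls was stable to leaving out libraries, where the count ran from 0 to 3, with 0 without GFP-negative control replicate 1 or 3 or GFP-positive control replicate 1 or 2. None passed in SIX2 libraries, where the smallest p-values were those of Sqstm1, the autophagy receptor p62 (0.24, adjusted p = 0.137), and Dnajb5, a J protein (0.54, adjusted p = 0.137). None passed for the interaction, where the smallest were those of Sqstm1 (0.43, adjusted p = 0.0988) and Dnaja4 (0.74, adjusted p = 0.0988).

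The level of muscle differentiation moved with the plasmid label beside these genes. Of 26 genes of differentiated muscle (contractile proteins, fusion factors and the like), 1 was higher with SIX2 in GFP-positive libraries and 19 were lower. The higher one was Atp2a1 (log2 difference 0.48, limma adjusted p = 0.000922). In GFP-negative libraries 22 were lower and 0 higher. Ttn and Neb did not pass there, but all their SIX2 libraries lay above the control libraries (log2 differences 0.43 and 0.29). Over all genes the shares were 12.1% higher and 11.2% lower for GFP-positive cells, and 13.6% and 14.3% for GFP-negative cells. The summed level of the 26 genes, in normalized counts divided by 1000000, was 1.90 to 2.17 in GFP-positive SIX2 and 2.48 to 2.62 in GFP-positive control libraries, and 1.71 to 1.84 in GFP-negative SIX2 and 2.23 to 2.36 in GFP-negative control libraries. Acta1 was the largest single part of this sum. Its means were 504135 in GFP-positive SIX2, 635008 in GFP-positive control, 460102 in GFP-negative SIX2 and 609593 in GFP-negative control libraries. None of the 26 was at 0 in any group. Between GFP labels in control libraries, 6 of the 26 were higher and none lower, against 0.919% and 2.56% of all genes. Cryab, Hspb1 and Bag3 lay lower in the SIX2 libraries, which had the lower sums. Hspb8 lay at 84310.3 to 90873 in GFP-positive SIX2 libraries and at 83210.5 to 89288 in the control libraries of both populations. In GFP-negative SIX2 libraries, where the sums were lowest, Hspb8 lay at 73339.5 to 78657. Differentiated muscle is known to make Cryab and Hspb8 in large amounts, but the part of differentiation in these differences was not tested.

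**Figure D5:**
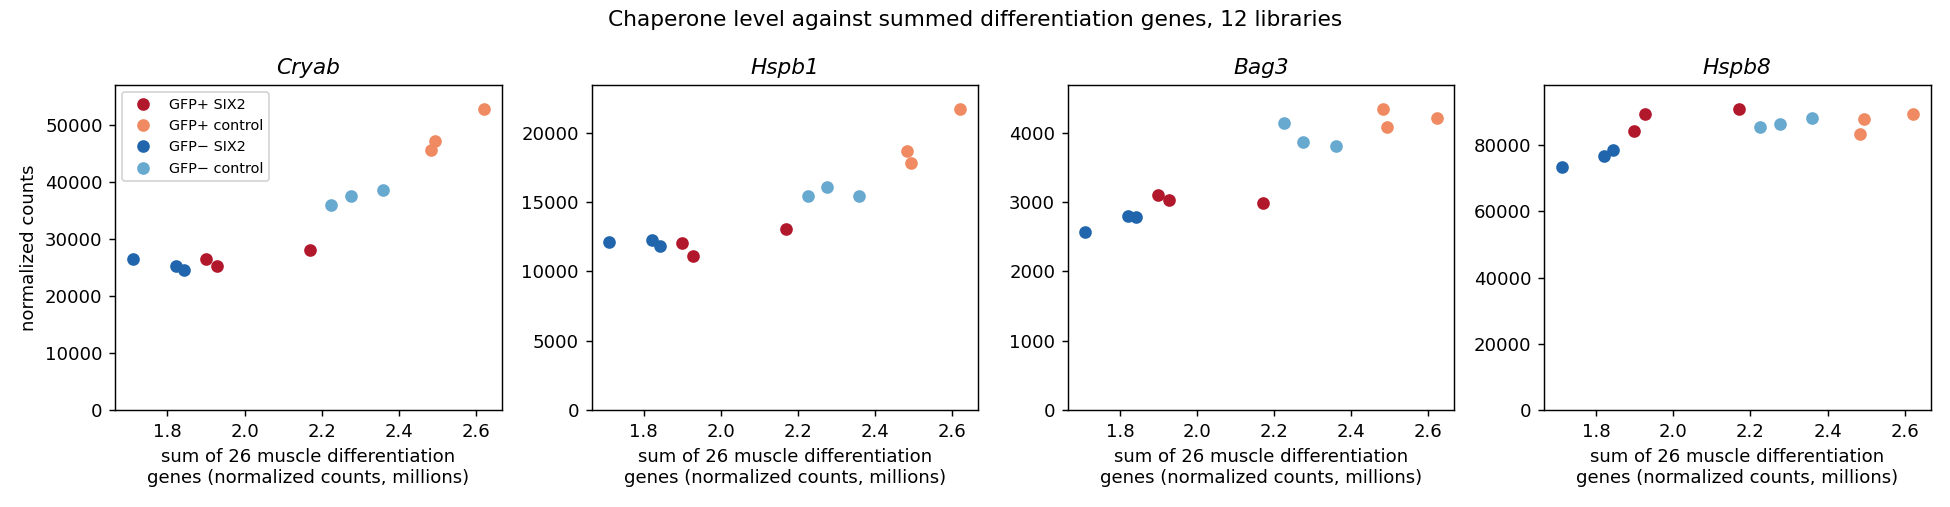
Normalized counts of 4 members (vertical axes, starting at 0) against the sum of 26 muscle differentiation genes (horizontal axis, normalized counts divided by 1000000), 1 point per library, coloured by group. The SIX2 libraries, at sums of 1.71 to 2.17, lie below the control libraries, at 2.23 to 2.62, for Cryab, Hspb1 and Bag3.

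Markers of other cell types were low throughout. The summed level of 5 fibro-adipogenic genes was 69.7 to 85.7 in GFP-positive SIX2 and 31.4 to 80.1 in GFP-positive control libraries, and 75.7 to 86.0 in GFP-negative SIX2 and 38.5 to 53.6 in GFP-negative control libraries. The highest library thus reached 86.0 normalized counts over the 5 genes. Of the 3 tested, Pdgfra and Cd34 did not pass between plasmid labels, and Ly6a was higher with SIX2 in both populations, at a mean of 27.2 in GFP-positive SIX2 and 4.77 in GFP-positive control libraries (limma adjusted p = 0.00157), and of 32.2 in GFP-negative SIX2 and 8.93 in GFP-negative control libraries (adjusted p = 0.00859). All 5 endothelial genes had group means below 10. The 4 macrophage genes summed to at most 58.0 in any library. Of the 2 tested, Csf1r was higher with SIX2, at a mean of 21.4 in GFP-positive SIX2 and 5.50 in GFP-positive control libraries (limma adjusted p = 0.0413), and of 28.0 in GFP-negative SIX2 and 4.95 in GFP-negative control libraries (adjusted p = 0.0166), and the other did not pass. The 3 Schwann cell genes summed to at most 134, and neither of the 2 tested passed. Sums of 8 progenitor genes were 184414 to 205538 in GFP-positive SIX2 and 214439 to 234742 in GFP-positive control libraries, and 144400 to 168090 in GFP-negative SIX2 and 212017 to 241219 in GFP-negative control libraries. Most of this sum was Des, the muscle intermediate filament gene, at means of 135387 in GFP-positive SIX2 and 165778 in GFP-positive control libraries, and of 105967 in GFP-negative SIX2 and 168413 in GFP-negative control libraries, and lower with SIX2 in both (limma adjusted p = 0.0159 and 5.55e-05). The stem cell regulators Pax7 and Myf5 and the adhesion molecule gene Vcam1 were instead higher with SIX2 in both populations. Their log2 differences in GFP-positive libraries were 0.79, 0.77 and 1.63 (limma adjusted p = 0.0126, 0.000353 and 4.39e-06), and in GFP-negative libraries 0.58, 1.32 and 1.41 (adjusted p = 0.0481, 6.47e-06 and 1.11e-05). In all, GFP-positive libraries had 3 of the 8 higher and 1 lower, and GFP-negative libraries 3 higher and 3 lower. Of all genes tested, 12.1% were higher and 11.2% lower in GFP-positive cells, and 13.6% and 14.3% in GFP-negative cells. The markers named in this paragraph were chosen for mention after their values were seen. The part of any of these lists in the chaperone differences was not tested.

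The genes whose levels ran most like 3 of the profiles were found by Pearson's r of log2(normalized count + 1) over the 12 libraries, among 12710 genes. Since the libraries form 4 groups, r mostly follows the group means, and it is given as a description. For Cryab these were Fabp3, a fatty acid binding protein of muscle (0.991), Cdc42ep3 (0.989), and Nexn, an actin filament protein of the Z-disc (0.986). Fabp3 averaged 6001 in GFP-positive SIX2 and 12238 in GFP-positive control libraries, and 5178 in GFP-negative SIX2 and 8945 in GFP-negative control libraries, the same order of groups by plasmid label as Cryab. For the sum of Hspa1a and Hspa1b they were Pls1 (0.865), Zfp30 (0.851) and Atxn7 (0.822), and for Hspa8 they were Eif2b3 (0.954), Zdhhc20 (0.936) and Ddrgk1 (0.93). The likeness to the HSP70 pair was looser than the others, and Pls1 was itself near the detection floor, at 5.59 in GFP-positive SIX2, 12.3 in GFP-positive control, 11.6 in GFP-negative SIX2 and 2.22 in GFP-negative control libraries.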

How the data were processed

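Per the labels' protocols, RNA of the transfected cells went through SMART-Seq2, Tn5 fragmentation and PCR, which do not mark strand. The submitters' processing notes name GRCm38, STAR 2.7.11a, RSEM 1.3.3 and DESeq2 1.42.0. The deposited values are normalized counts (a signal: counts divided by a size factor per library). Whole counts, called reads here, were recovered from the steps between values, to within 1e-04 for 100% of them. How the counting shared reads between genes is not stated, so a recovered count can be an estimate.

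All 12 libraries were fitted together as 4 group means with limma 3.58.1 (limma-trend, R 4.3.3, two-sided) on log2(value + 1), for genes with at least 10 in at least 3 libraries; folds of low genes are understated. Alternatives were other pseudocounts, filters and scalings, library weights, a replicate block, DESeq2 1.42.0 and edgeR 4.0.16 (quasi-likelihood) on recovered reads, the summed Hspa1 pair, GC trend removal (loess) and leaving out each library. Of the wider list, up to 4 called genes per direction with the smallest p were named, or 2 as values; Hspb2, Hsf1, Unc45a, Unc45b, Smyd1, Fkbp5 and the cell type markers were named after their values were seen. Members and lists were chosen with earlier results of these data known. No replicate pair was closer than sampling noise (chi-square per degree of freedom 7.69 or more). The fit was tested on simulated data. The GENCODE annotation matched 99.8% of identifiers.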

Additional observations from a re-analysis of the deposited data

Results flagged for a closer look

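Hspa1a, Fkbp5 and Sqstm1 were the genes of both lists in which every library of one population lay on one side for the plasmid label and every library of the other population on the opposite side. The share of all genes with this pattern was not computed. In a single population and direction, groups did not overlap for 18.1% to 23.5% of all genes. Depth also ran in opposite directions by plasmid label in the 2 populations, and cannot be told apart from this pattern. The interaction did not pass for any of the 3 in limma. For Hspa1a it was −0.92 (adjusted p = 0.0995): its SIX2 libraries lay at 152 to 217 normalized counts, below the control libraries at 251 to 263, in GFP-positive cells, and at 200.9 to 243, above 144 to 176, in GFP-negative cells.

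Fkbp5, an HSP90 co-chaperone induced by glucocorticoids, had an interaction of 0.72 (limma adjusted p = 0.183). It had 161, 169.5 and 226 normalized counts in GFP-positive SIX2 libraries, against 136, 158 and 137 in GFP-positive control libraries. Values of 161, 133 and 156 stood in GFP-negative SIX2 libraries, against 229, 185 and 171 in GFP-negative control libraries. Neither plasmid-label difference passed alone, with 0.35 in GFP-positive (adjusted p = 0.174) and −0.37 in GFP-negative libraries (adjusted p = 0.141).

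Sqstm1 had an interaction of 0.43 (limma adjusted p = 0.0988). It had 18936, 19252 and 20273 normalized counts in GFP-positive SIX2 libraries, against 18011, 17667 and 18622.5 in GFP-positive control libraries. It had 17742, 16928.5 and 14939 in GFP-negative SIX2 libraries, against 21659.9, 19851 and 20479.8 in GFP-negative control libraries. By GFP label the libraries also parted in opposite directions, with the GFP-positive ones higher under SIX2 (0.24, adjusted p = 0.137) and lower under control (−0.19, adjusted p = 0.121).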

How the results depend on the processing

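Of 1116 member differences computed under alternatives, 1042 kept their direction and side of the threshold, 38 lost the call, 15 gained one and 21 changed sign. Of these 21, 1 was a call: Hspb8 by plasmid label in GFP-negative libraries, 0.042 after quantile normalization. The other 20 were near 0 as reported, and were called neither as reported nor with the changed sign. Quantile normalization moved Hspa8 by plasmid label in GFP-negative libraries from −0.037 to 0.20 (limma adjusted p = 0.0648), which is not near 0. By GFP label it gave −0.024 for Hspa8 and −0.053 for Hspb8 in control libraries and −0.0030 for Cryab in SIX2 libraries. With the GC trend removed Cryab was −0.0067 by GFP label in SIX2 libraries and Bag3 −0.079 for the interaction. Library weights gave Hspb8 −0.011 by GFP label in control libraries, and DESeq2 gave Hspb1 0.0014 in SIX2 libraries. With a library left out, the plasmid-label difference ran from −0.072 to 0.013 for Hspa8 in GFP-negative libraries and, in GFP-positive libraries, from −0.024 to 0.077 for Hsp90aa1 and from −0.0060 to 0.056 for Hspb8. The GFP-label difference ran from −0.019 to 0.032 for Hspb8 in control libraries and from −0.061 to 0.058 for Hspb1 in SIX2 libraries. The cause of these sign changes was not tested. The calls of Cryab, Bag3 and Hsph1 between plasmid labels held under all 25 alternatives in both populations. Members called in GFP-negative libraries, 8 of 9, became 5 with the GC trend removed and 4 to 8 with a library left out. Those called between GFP labels in control libraries, 3, ran from 0 to 4 with a library left out. Between GFP labels in SIX2 libraries, 0 became 1 with DESeq2, and for the interaction 0 became 1 with library weights and 2 with DESeq2.

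Over all genes, library weights raised the GFP-negative calls to 6142, against 4075. Between GFP labels in control libraries, 507 calls became 1520.0 with library weights, 1087 with DESeq2, 298 with the replicate block and 68 to 820.0 with a library left out. In SIX2 libraries 28 became 294 with DESeq2 and 13 to 60 with a library left out. The interaction had 282 with library weights, 558 with DESeq2 and 0 to 171 with a library left out. The wider list's 2 calls between GFP labels in control libraries ran from 0 to 6.

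Replicate numbers did not pair the libraries: correlations of same-numbered deviations ran from −0.203 to 0.0527 over 18 pairs, and 1 of 12 libraries correlated best with its own number. With the replicate number as a block, members called by plasmid label were 4 for GFP-positive cells and 8 for GFP-negative cells, and 0 in SIX2 and 2 in control libraries by GFP label, where Hspb1 missed (adjusted p = 0.0745).

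With 3 libraries a group, and fewer reads in some groups, small differences of low genes such as Hspa1b were not detectable.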
